A study of Mus musculus with 7 samples.

Results

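Intestinal intraepithelial lymphocytes (IELs) are T cells that sit between the epithelial cells of the gut. Natural-type IELs take up residence early, carry CD8αα homodimers (Cd8a without Cd8b1) and the signalling adaptor Fcer1g, and lack Cd5, whereas induced-type IELs come from conventional T cells after antigen encounter and keep Cd5. CD4 is the coreceptor of T cells that read MHC class II, and in conventional T cells its expression goes with the transcription factor ThPOK, the product of Zbtb7b.

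The T cell clones ranked the second and the third by size in the aged intestine, both of natural type, were set against each other across all genes, and the cells of the second with and without Cd4 mRNA against each other. The members were chosen by their receptor contigs and barcode counts, with the Cd4, Cd8a and Fcer1g levels of the clones already known. A clone here is a clonotype, the cells whose receptor chains carry the same CDR3 bases. The clonotype ranked second by cell number (clone 2) held 673 cells and the one ranked the third (clone 3) 151 cells, together 824 of the 5811 cells of the old IEL pool and of 21365 cells in the whole series. Clone 2 made up 17.2% and clone 3 3.87% of the 3906 old IEL cells with a receptor contig. The clonotypes on either side of this choice, the first and the fourth (clone 1 and clone 4), held 1047 and 77 cells.

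All these cells came from male C57BL/6 mice of 80 weeks, 3 of which were pooled, and the other pools of the series were young IELs and old and young spleen T cells. The IEL pool was a mixture of sorted CD3+ and CD3+CD4+ cells, so both clone sizes and the share of cells with Cd4 depend on how the sorted fractions were mixed. The pool carried 1 tag and not 1 per mouse, so a clone and the mouse it came from cannot be told apart. With 1 pool there was no replicate, and no test was made. Every interval below is an exact 95% interval that covers counting error only.

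The chains that define the clones are shown first, since they are all that chose the cells. Bases in capitals match neither the germline V nor the germline J segment of the GRCm38 genome.

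Clone 2 beta: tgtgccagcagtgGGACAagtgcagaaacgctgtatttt
Clone 2 alpha: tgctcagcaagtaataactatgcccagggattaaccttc
Clone 3 beta: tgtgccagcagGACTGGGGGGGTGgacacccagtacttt
Clone 3 alpha, first: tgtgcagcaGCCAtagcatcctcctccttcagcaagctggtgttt
Clone 3 alpha, second: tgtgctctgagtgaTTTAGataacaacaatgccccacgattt

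The clone 2 beta chain joined TRBV13-1 (chr6:41116007-41116468, + strand, GENCODE M21) to TRBJ2-3 (chr6:41543223-41543271). It had 5 junction bases outside V and J, and all 5 occur as a run in the D segment TRBD1. Its alpha chain joined TRAV5-1 (chr14:52622566-52623082) to TRAJ26 (chr14:54194490-54194549) and had 0 such bases. Both chains were read in all 673 cells, with a median of 17 UMIs (unique molecular identifiers, counted transcripts) for beta and 7 for alpha. The clone 3 beta chain joined TRBV19 (chr6:41178375-41179048) to TRBJ2-5 (chr6:41543453-41543501) with 13 other bases, 11 of them a run of TRBD2. Clone 3 carried a pair of alpha chains, TRAV7D-2 with TRAJ50 in 145 cells and TRAV6-7-DV9 with TRAJ43 in 132 cells. In clone 3, 126 cells held both alpha chains and 25 held 1 of them.

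The cells were of similar depth in both clones. Clone 2 had a median of 5686 UMIs per cell (1535 to 15162) and 3939530 in all, and clone 3 a median of 5989 (2740 to 23079) and 992534 in all. Mitochondrial genes took 0.828% and 0.720% of the UMIs. No cell barcode was shared by any of the pools. The natural-type label rests in part on Cd8a and Fcer1g, known when the clones were chosen, so their values are a description. Cd8a, the alpha chain of CD8, was detected in all cells of both clones, while Cd8b1, which encodes the beta chain, had 4 UMIs in clone 2 and 1 in clone 3. Cd5 had 21 UMIs in clone 2 and 1 in clone 3, and Trdc, the constant segment of the delta chain, had 30 and 4. No Cd5 value of an induced-type clone was set beside these. The B cell marker Cd79a and the myeloid marker Lyz2 had 0 UMIs in both clones, with exact upper limits of 0.547% of clone 2 cells and 2.41% of clone 3 cells with a UMI. Taking 3 cells as the limit that a count of 0 allows gives 0.446% and 1.99%.

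Clones 2 and 3 expressed nearly the same genes at nearly the same levels. A level is the number of UMIs of a gene per 10000 UMIs of the cells of a clone, and a gene was tested if the mean of its levels in both clones reached 0.25. A gene high in 1 clone alone could pass this filter. T cell receptor genes were left out. Of 5659 genes tested, 42 (0.742%) were at least 2-fold higher in clone 2 and 21 (0.371%) at least 2-fold higher in clone 3, on the scale of log2(level + 0.1). The median log2 ratio over all tested genes was -0.01, and 93.4% of them lay within 0.5 of zero. In all 63 genes the counting intervals of the clones were separate. The genes were chosen by ratio and level from the same counts, so this is no independent check of them. The intervals also leave out the gathering of UMIs in few cells. For Stmn1, 42 of the 50 clone 3 UMIs lay in 4 cells.

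**Figure D1:**
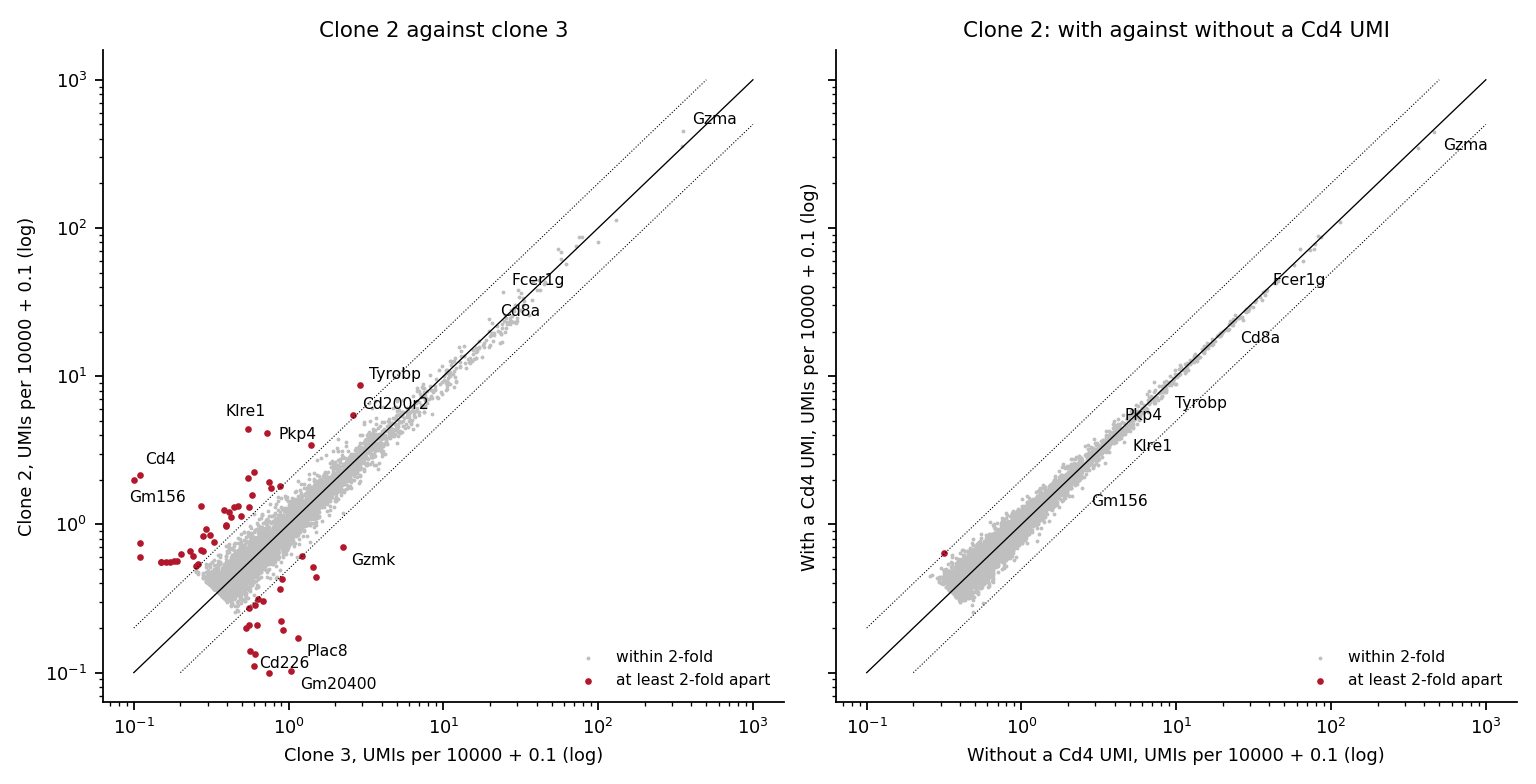
Each point is a gene, plotted by its level (UMIs per 10000 plus 0.1, log axes) in clone 3 and clone 2 on the left, and in clone 2 cells without and with a Cd4 UMI, matched on total UMIs, on the right. Dotted lines mark 2-fold. On the left 63 genes lie outside the lines and on the right 1.

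Cd4 (chr6:124864692-124888221, - strand) was known to differ when the clones were chosen, and its values are a description. Clone 2 had 804 Cd4 UMIs, a level of 2.04 (1.90 to 2.19), and clone 3 had 1, a level of 0.0101 (0.000255 to 0.0561). A Cd4 UMI was found in 65.4% of clone 2 cells and in 0.662% of clone 3 cells. After each cell was thinned to 2000 UMIs, the shares were 32.2% (28.7 to 35.9) of 667 cells and 0% (0 to 2.41) of 151 cells. γδ T cells of the same pool, taken as 546 cells without a receptor contig and with at least 2 Trdc UMIs, were set beside them. Their share was 1.47% (0.637 to 2.88) after thinning and 2.93% before, at a median of 6225.5 UMIs. Their 35 Cd4 UMIs lay in 16 cells, where an even level would give a UMI in 6.18% of cells. These UMIs were thus gathered in fewer cells than 1 level would give, and their source was not tested. The interval of the clone 3 share before thinning (0.0168 to 3.63) held the 2.93% of the γδ cells. The Cd4 level of clone 2 was below that of clone 1, an induced-type clone (3.43), and its interval overlapped that of clone 4 (2.56, 2.16 to 3.02).

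Of the genes that govern CD4 against CD8 fate, Tcf7 alone was 2-fold apart among those tested, and Zbtb7b was too rare to test. Zbtb7b had 25 UMIs in clone 2 and 2 in clone 3, in 3.57% and 1.32% of cells, against 5.13% of the γδ cells. Runx3, which silences Cd4 in CD8 T cells, had a level of 2.59 in clone 2 and 2.29 in clone 3. Runx1 had levels of 1.30 and 1.42, and Gata3 0.429 and 0.312. Of the 11 tested genes of the CD4 and CD8 lineage list, 0 were 2-fold higher in clone 2 and 1 in clone 3. Over all tested genes the shares were 0.742% and 0.371%, so a count of 0 lies near its share. The median log2 ratio of the list was -0.03. Tcf7, higher in clone 3, encodes TCF-1, a factor of naive and memory-like T cells (0.433 against 0.102). It passed the filter through clone 3 alone. Tcf7 was found in 18 clone 3 cells (11.9%, where 1 level would give 24.4%) and in 22 clone 2 cells. Of the other tested genes of this list, Tox was the furthest apart, with a log2 ratio of 0.68.

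Genes of the natural killer receptor complex on chromosome 6 were among those furthest apart. Gm156 (chr6:129766568-129784270, - strand) had 751 UMIs in clone 2, a level of 1.91 (1.77 to 2.05), and 0 in clone 3. Taking 3 UMIs over the whole of clone 3 in place of 0 gives a ratio of 63.1, and the exact lower limit of the ratio was 51.2. Klre1 (chr6:129577905-129585827, + strand), a lectin-like NK receptor, had levels of 4.27 (4.07 to 4.48) and 0.443 (0.322 to 0.595), a 9.63-fold difference (7.14 to 13.3). Klrk1 (chr6:129610323-129623864, - strand), which encodes NKG2D, had levels of 0.467 (0.402 to 0.540) and 0.0806 (0.0348 to 0.159), 5.79-fold apart. Klrd1 (chr6:129591782-129598775, + strand), the gene for CD94, lies between Klre1 and Klrk1, and its levels of 12.4 and 11.3 were within 2-fold. Of the 23 NK receptor genes listed only these 3 Klr genes reached the level for testing, Klrk1 through clone 2 alone. Of the 3, 2 were 2-fold higher in clone 2, against 0.742% of all tested genes.

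Of 15 tested genes in the list of natural IEL adaptors and receptors, 4 were 2-fold higher in clone 2 and 0 in clone 3. Over all tested genes the shares were 0.742% and 0.371%. The median log2 ratio of the list was 0.61, the value of Fcer1g itself. That value was known when the clones were chosen, so it is a description only. At the other end of the list, Cd160, an activating and inhibitory receptor of NK cells and IELs, had levels of 5.44 in clone 2 and 8.30 in clone 3, a log2 ratio of -0.60. Tyrobp, which encodes the adaptor DAP12 used by NKG2D, had levels of 8.59 (8.30 to 8.88) and 2.81 (2.49 to 3.16), 3.05-fold apart. Kit, the receptor for stem cell factor, had levels of 0.465 and 0.0907 and passed the filter through clone 2 alone. Cd200r2 had levels of 5.34 and 2.52, and the Src-family kinase Lyn 1.72 and 0.786. Fcer1g had levels of 36.9 (36.3 to 37.5) and 24.1 (23.2 to 25.1), a 1.53-fold difference that did not reach the 2-fold limit. Il2rb, the beta chain of the IL-2 and IL-15 receptors, had a log2 ratio of 0.62 and Tnfrsf9 of 0.73.

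Among inhibitory receptors, Tigit was 2-fold higher in clone 2, at 3.33 (3.15 to 3.52) against 1.30 (1.09 to 1.54), and was the only such gene of 7 tested. Lag3 (chr6:124904361-124911705, - strand), whose product binds MHC class II and whose gene lies close to Cd4, had levels of 6.66 (6.41 to 6.92) and 3.54 (3.18 to 3.93), a log2 ratio of 0.90. Ctla4 had levels of 0.437 and 0.584. Of 9 tested chemokine and cytokine genes, Tnfsf8, the gene for CD30 ligand, was 2-fold higher in clone 2 (0.886 against 0.292) and 0 were 2-fold higher in clone 3. For both lists the shares over all tested genes were 0.742% higher in clone 2 and 0.371% higher in clone 3. Spp1, which encodes osteopontin, had levels of 0.734 and 0.181.

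Other genes at the top of clone 2 have roles outside the immune receptors. Pkp4, a plakophilin of cell junctions, had levels of 4.06 (3.86 to 4.26) and 0.625 (0.479 to 0.801). Bcl2l15, a member of the Bcl-2 family, had levels of 2.17 and 0.494. Pkp4 was detected in 86.0% of clone 2 cells and 30.5% of clone 3 cells, and Bcl2l15 in 69.4% and 23.2%.

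Ckm, the muscle form of creatine kinase, had 256 UMIs in clone 2 and 1 in clone 3, a ratio of 64.5 (11.5 to 2557). Setbp1 had 199 UMIs and 1, a ratio of 50.1 (8.90 to 1990). Further genes among the top 12 were the lincRNAs Gm32772 and Gm31718, the dynamin gene Dnm3 and the splicing factor gene Srsf12, with levels of 0.459 to 1.95 in clone 2 and 0.0504 to 0.443 in clone 3.

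**Figure D2:**
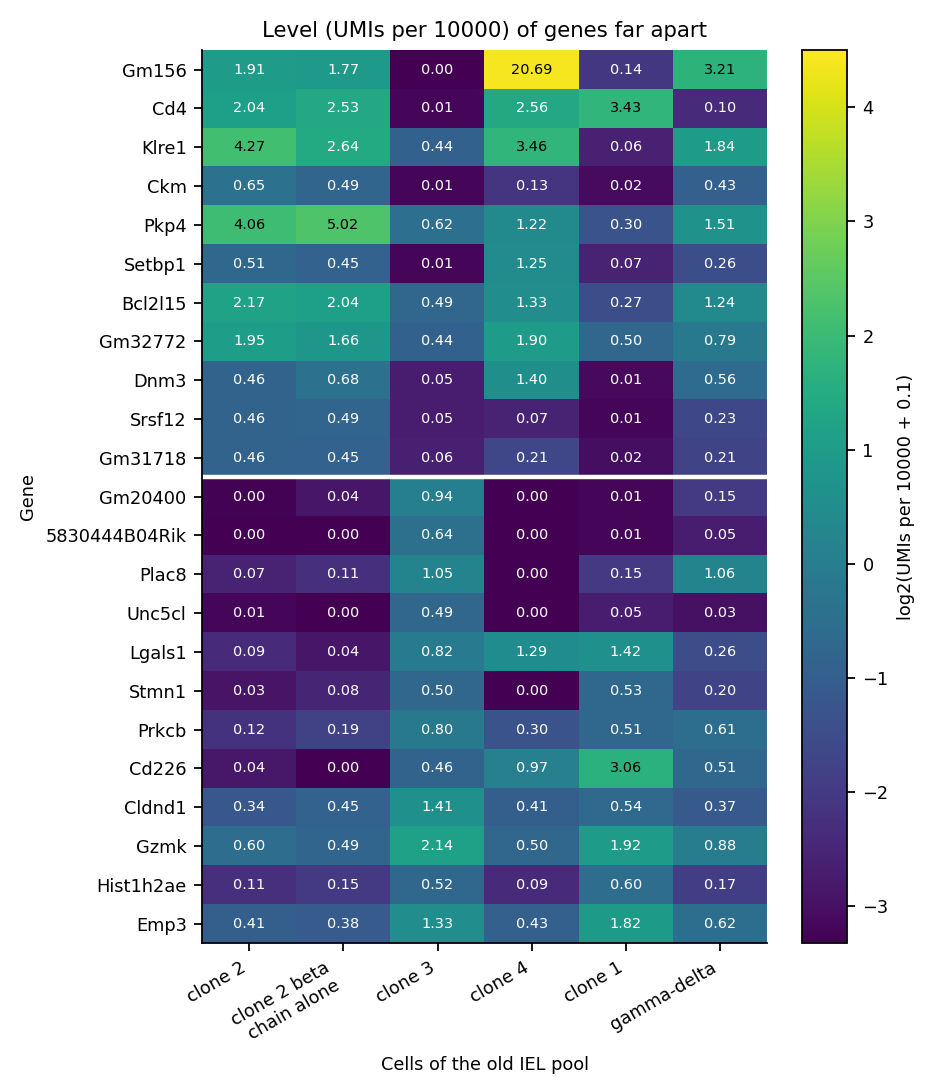
Level (UMIs per 10000, printed in each cell and coloured on the log2(level + 0.1) scale) of 11 of the 12 genes furthest apart towards clone 2 and the 12 towards clone 3, in 6 groups of old IEL cells. The cells that held the clone 2 beta chain alone followed clone 2, at 1.77 for Gm156 and 2.64 for Klre1, while clone 1 had 0.14 and 0.06.

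Genes higher in clone 3 were fewer, and none of them exceeded the 2.14 of Gzmk. Gzmk encodes granzyme K, and its levels were 2.14 (1.86 to 2.44) in clone 3 and 0.602 (0.527 to 0.683) in clone 2. It was the only gene of 16 tested in the cytotoxic list that was 2-fold apart. Gzma, a far more abundant granzyme, had levels of 355 in clone 3 and 452 in clone 2. Cd226, an activating receptor that competes with TIGIT for its ligands, had levels of 0.463 (0.339 to 0.618) in clone 3 and 0.0406 (0.0232 to 0.0660) in clone 2, 11.4-fold apart. It was the only one of 5 tested conventional T cell surface genes that was 2-fold apart, and it passed the filter through clone 3 alone. For this list and the cytotoxic list, the shares over all tested genes were 0.371% higher in clone 3 and 0.742% higher in clone 2.

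Between clones 2 and 3, the noncoding genes Gm20400 and 5830444B04Rik were read almost only in clone 3. They were not confined to it, since 5.94% and 2.79% of all old IEL cells held a UMI. Gm20400, annotated as antisense, had 93 UMIs in clone 3 and 1 in clone 2, a ratio of 369 (64.6 to 14735). Whether the counting used strand is not given in the sources used here, so reads of a partner on the other strand cannot be told apart from it. 5830444B04Rik had 64 UMIs in clone 3 and 0 in clone 2, a ratio of 84.7 if 3 UMIs over clone 2 are taken in place of 0.

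Plac8 had levels of 1.05 in clone 3 and 0.0711 in clone 2, and Unc5cl, which encodes a death-domain protein, 0.494 and 0.0102. Prkcb, a protein kinase C, had levels of 0.796 and 0.122, Cldnd1 1.41 and 0.340, and Emp3 1.33 and 0.414. Of the 12 tested effector transcription factors Rora was 2-fold higher in clone 3 (0.776 against 0.264), and of 10 tested chemoattractant receptors Cxcr3 was (0.453 against 0.173). Cxcr3 passed the filter through clone 3 alone. Beside these counts, 0.371% of all tested genes were 2-fold higher in clone 3.

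Cells in division moved with the clone 3 list. In 4 of 151 clone 3 cells (2.65%) and in 0 of 673 clone 2 cells, 6 or more of 14 cell cycle genes were detected. Those 4 cells held 42 of the 50 clone 3 UMIs of Stmn1, which encodes stathmin, 36 of the 52 of Hist1h2ae and 44 of the 81 of Lgals1, the gene for galectin-1. Without them 12 genes were 2-fold higher in clone 3. The 9 that were lost were Stmn1, Hist1h2ae, Lgals1, Top2a, Cks2, Slc25a4, Gm43305, CAAA01147332.1 and Cd226. Cd226 drew 5 of its 46 UMIs from the 4 cells and had a log2 ratio of -1.94 without them, its mean level then lying under the limit for testing. The 42 genes higher in clone 2 stayed at 42, the same genes. Without the 2 clone 3 cells and 1 clone 2 cell over 15000 UMIs, 15 genes were 2-fold higher in clone 3 and 42 in clone 2. Among the called genes, Hist1h2ae, Bcl2a1a and Lilr4b have close copies between which reads could be split.

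On the scale of log2(level + 0.1), the other lists held no gene that was 2-fold apart. Over all tested genes, 0.742% were 2-fold higher in clone 2 and 0.371% in clone 3. A count of 0 in lists this short lies near those shares. Of 37 tested genes of T cell receptor signalling, 24 of cytokine receptors and JAK-STAT, 20 of activation, 14 of the interferon response, 14 of glycolysis, 12 of residency and adhesion and 11 of MHC, 0 were 2-fold apart. Their median log2 ratios ran from -0.15 for MHC to 0.14 for activation. All 11 tested MHC genes had log2 ratios below zero, from -0.62 to -0.0013. The median over all tested genes was -0.0086, so most tested genes lay below zero too. The MHC gene at -0.0013 lay above that median. Lat, the adaptor below the T cell receptor, had the log2 ratio of largest size in the signalling list, at -0.47. The interferon-induced GTPase genes Igtp and Gbp2 had log2 ratios of -0.76 and -0.72. On levels without the added 0.1, Igtp was 2.01-fold higher in clone 3. Of the lists for other cells, 1 myeloid gene (Cst3, 2.04 against 1.42) and 1 epithelial gene (Epcam, 0.475 against 0.232) were abundant enough to test. Fabp1, an abundant enterocyte gene, had 14 UMIs in clone 2 and 0 in clone 3. The summed level of the epithelial list was 0.670 in clone 2, 0.403 in clone 3 and 0.971 in γδ cells, and that of the B cell list 0.188, 0.594 and 0.880. The part of these cell types in the differences between the clones was not tested.

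**Figure D3:**
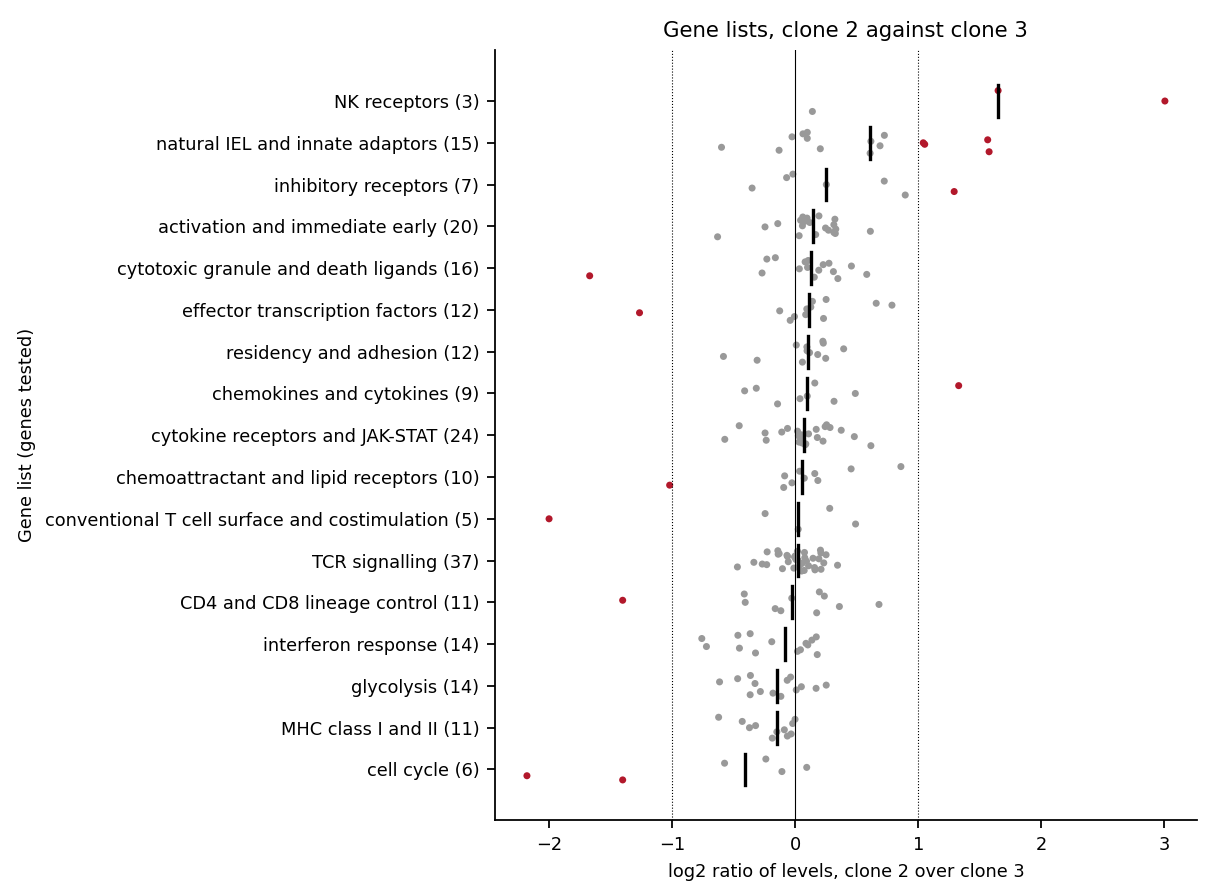
Log2 ratio of the level in clone 2 over that in clone 3 for each tested gene (points, red where at least 2-fold apart) of 17 gene lists, with the number tested in brackets and the list's median as a black bar. NK receptors and natural IEL adaptors have medians of 1.65 and 0.61, and every other list lies between -0.41 and 0.25. The median of 1.65 is Klrk1, tested through its level in clone 2 alone. The median of 0.61 is Fcer1g, known when the clones were chosen.

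Cells that took no part in the choice of these genes were then compared with both clones. The clone 2 beta chain was also read in 72 old IEL cells with no alpha chain, ranked sixth as a clonotype of their own, at a median of 3524.5 UMIs. They may be clone 2 cells whose alpha chain was not read. This was not tested, so they do not count as a group independent of clone 2. Their Cd4 level was 2.53 (1.96 to 3.21) and their Fcer1g level 35.5 (33.3 to 37.8). Of the 42 genes higher in clone 2, 41 had a level nearer to clone 2 than to clone 3 in these cells, and of the 21 genes higher in clone 3, 20 did, against 61.3% of all tested genes. Clone 4, which carried other chains, was also Fcer1g-high and Cd4-bearing, at levels of 19.2 and 2.56. In clone 4, 32 of the 42 genes and 14 of the 21 were nearer to clone 2, against 56.4% of all tested genes.

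Among the genes higher in clone 2 than in clone 3, Gm156 had a level of 20.7 (19.5 to 21.9) in clone 4 and 1.91 in clone 2. All old IEL cells together had levels of 2.24 for Gm156, 8.57 for Tyrobp and 1.55 for Klre1. Clone 2 was thus below the pool for Gm156, level with it for Tyrobp (8.59) and above it for Klre1 (4.27). Klre1 was at 3.46 and Tyrobp at 9.01 in clone 4, each nearer to clone 2. Pkp4 at 1.22, Ckm at 0.125 and Srsf12 at 0.0717 were nearer to clone 3. The γδ cells, which had little Cd4 (0.0965), had 31 of the 42 genes nearer to clone 2 and 10 of the 21, against 61.1% of all tested genes. Among the 31 were Tyrobp at 18.7 and Gm156 at 3.21. In clone 1, which carries Cd4 and hardly any Fcer1g (0.855), 2 of the 42 and 7 of the 21 were nearer to clone 2, against 49.0% of all tested genes.

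Within clone 2, 1 gene other than Cd4 was 2-fold apart between cells with and without a Cd4 UMI. A Cd4 UMI was found in 440 cells and none in 233. To match depth, each cell without a Cd4 UMI was paired with a cell with one whose total was within 10%, which gave 228 cells a side with medians of 5531 and 5532 UMIs. Of 5696 genes tested, Cd4 left out, 1 (0.0176%) was at least 2-fold higher in cells with a Cd4 UMI and 0 (0%) in cells without. No gene was past 2-fold when cells were not matched or when at least 2 Cd4 UMIs were asked for. With cells thinned to 2000 UMIs and their state taken from the thinned counts, 10 genes were higher with and 5 without. The lowest log2 ratio was -0.94, and 97.4% of the genes lay within 0.5 of zero.

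The genes that set clone 2 apart from clone 3 were then read in both sides. If all clone 2 cells had 1 Cd4 level, set at their own mean, 215.32 cells would lack a UMI, and 233 did. A cell without a Cd4 UMI thus need not lack Cd4 mRNA, and this comparison has little power to tell states apart. The source of the cells without a UMI was not tested. Of the 62 genes other than Cd4 that set the clones apart, 0 were 2-fold apart between the states. Their log2 ratios ran from -0.59 to 0.88, with a median of 0.04. The filter on level was not applied to this count. Genes near the floor in clone 2, such as Stmn1 (4 and 5 UMIs) and Unc5cl (3 and 1), could hardly reach 2-fold with 0.1 added. 5830444B04Rik, with 0 UMIs in clone 2, could not. For such genes the count of 0 says nothing about the states. Fcer1g had levels of 37.0 with and 36.4 without a Cd4 UMI, Cd8a 21.98 and 22.71, and Tyrobp 7.92 and 8.53. Klre1 had levels of 3.99 and 4.44, and Runx3 2.81 and 2.27. Gm156 had levels of 1.66 and 2.38, a log2 ratio of -0.49. Zbtb7b had 8 and 6 UMIs and Cd5 6 and 4. Among the genes highest in cells with a Cd4 UMI were Smg9, S100a1, Ccdc88b, Tubgcp3, Spred2 and Lpar6, with log2 ratios of 0.76 to 0.81. Those highest in cells without were Mad2l1bp, Cisd1, Sft2d3, Acadm, Msmo1, Dalrd3, Impa2 and Nipsnap3b, with log2 ratios of -0.94 to -0.67. These named genes are extremes of 5696 tested, and none of them was 2-fold apart. With thinned cells, Smg9 alone of them was among the genes called. Thinning lowers the counts further, so this cannot decide which of them go with Cd4. They are not shown to be markers of a Cd4 state.

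Neighbours of each cell were then counted. With 151 cells of each clone thinned to 2000 UMIs and placed on 10 principal components without receptor genes, 32.6% of the 15 nearest neighbours came from the other clone, where fully mixed cells would give 50.2%. Cd4 itself was among the genes used. Without thinning, the share was 17.6%. For 226 clone 2 cells with a Cd4 UMI and 226 without, with Cd4 left out, 48.4% of neighbours came from the other state, and 49.0% without thinning, where fully mixed cells would give 50.1%.

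Cd4 UMIs per cell of clone 2 were set against what 1 shared level would give. Of 673 cells, 233 had 0 Cd4 UMIs, 229 had 1, 119 had 2 and 53 had 3, and the highest count was 6. If every cell had the mean level of the clone and its own depth, 215.32 cells would have 0, 234.786 would have 1 and 137.682 would have 2. At the upper end the counts were above 1 level, with 14 cells at 5 UMIs and 4 at 6. There 1 level would give 5.79 and 1.57 cells. The observed share of cells with a Cd4 UMI was 65.4% (61.6 to 69.0), and 68.0% would be found at 1 level. With clone 2 divided by depth into groups of 168 or 169 cells, the share was 60.7%, 60.7%, 69.0% and 71.0% from the shallowest to the deepest, where 1 level would give 55.3%, 65.9%, 71.2% and 79.5%. For the deepest group the share at 1 level lay outside the observed interval (63.5 to 77.7), and for the others inside. In clone 4 the share was 74.0% (62.8 to 83.4), where 1 level would give 82.1%.

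**Figure D4:**
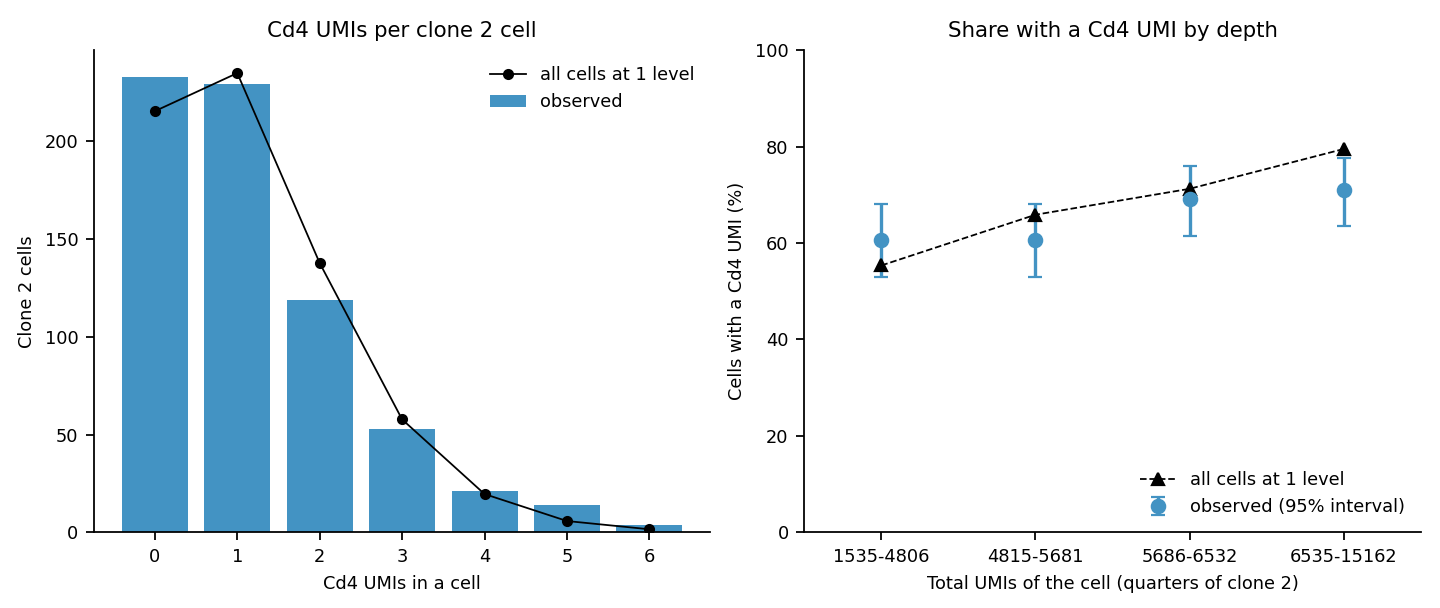
Left, number of clone 2 cells by their count of Cd4 UMIs (bars) and the number if all cells had 1 level (points). Right, share of clone 2 cells with a Cd4 UMI in groups of rising total UMIs (points with exact 95% intervals) and the share at 1 level (triangles), which rises from 55.3% to 79.5% while the observed share goes from 60.7% to 71.0%.

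Some genes higher in clone 2 were found in far fewer of its cells than 1 level would give. Gm156 was found in 22.1% of clone 2 cells, where 1 level would give 65.6%. It had 751 UMIs in 149 cells, 109 of which held at least 3 UMIs and 1 of which held 22. In clone 4 it was found in all 77 cells. Tyrobp was found in 74.7% of clone 2 cells, where 1 level would give 98.5%, and in 39.1% of clone 3 cells against 81.3%. Klrk1 was found in 13.7% of clone 2 cells against 23.7%, and Spp1 in 23.5% against 34.4%. Klre1, Pkp4 and Cd200r2 were closer to 1 level, at 84.0% against 89.8%, 86.0% against 88.7% and 89.6% against 93.9%. Of the 42 genes higher in clone 2, 6 were found in under 0.8 of the share that 1 level would give in clone 2 cells. Of the 21 higher in clone 3, 10 were in clone 3 cells. The 21 include Stmn1, Hist1h2ae and Lgals1, most of whose clone 3 UMIs lay in the cycling cells. The like share over all tested genes was not computed, so patchy detection is not shown to be particular to these genes.

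**Figure D5:**
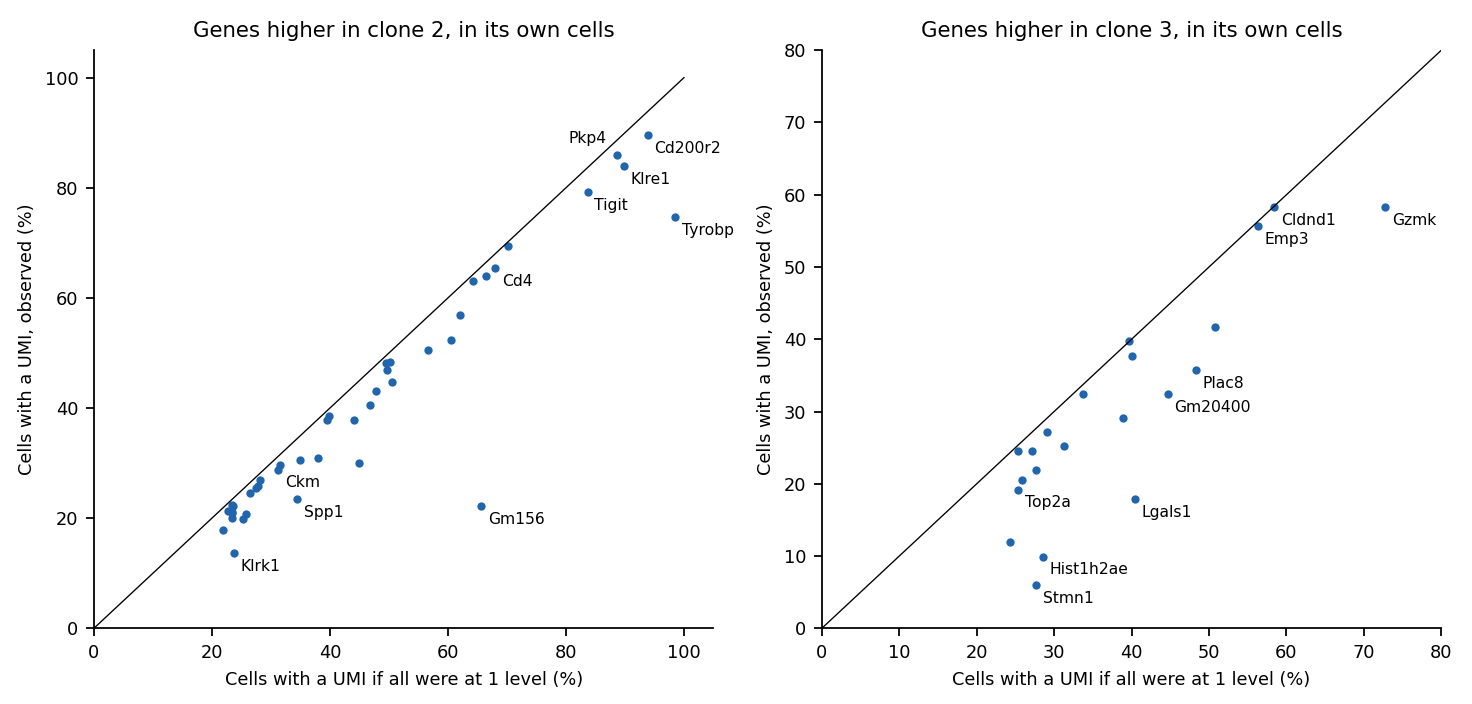
Share of cells with a UMI as observed, against the share if every cell of the clone had the same level, for the 42 genes higher in clone 2 in clone 2 cells (left) and the 21 higher in clone 3 in clone 3 cells (right); the line marks equality. Cd4 lies near the line (65.4% against 68.0%), and Gm156 far below it (22.1% against 65.6%).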

How the data were processed

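Single cells of old and young IEL and spleen T cells were captured with a 5' droplet kit, and mRNA and receptor libraries were sequenced. The authors counted UMIs with Cell Ranger 7.0.1 on mm10, per the labels, and deposited filtered UMI count matrices (32285 genes) and receptor contigs, whose UMI counts were also used. Here, UMIs were summed over the cells of a clonotype, scaled to 10000, and compared as log2(level + 0.1) after a filter on a mean level of 0.25, leaving out 268 receptor genes. No cell was removed and no doublet caller was run. Cells over 15000 UMIs or 10% mitochondrial were left out in an alternative. The Cd4 shares given as thinned used cells thinned to 2000 UMIs. All other shares of cells with a UMI were not thinned and depend on depth. Clones were also compared by 15 neighbours. Genes were named by a rule: markers, the 12 furthest apart each way (8 within clone 2), and list members. Zbtb7b, Cd5, Runx1, Runx3, Gata3, Gzma, Spp1, Tcrg-C1, and Gm156 and Klre1 within clone 2 were named after their values were seen. The clones, the lists and the rule were chosen with earlier results of these data known. 2 list genes had no row. Some genes that the rule names are not reported here. The functions were tested on simulated data. Python 3.11.15, numpy 2.4.6, scipy 1.17.1 and scikit-learn 1.9.0 were used, with positions from GENCODE M21 on GRCm38.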

Additional observations from a re-analysis of the deposited data

Results flagged for a closer look

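The CDR3 bases of the clone 2 beta chain were also read in 17 young IEL cells of 3 clonotypes, which belong to no comparison above, and in 0 cells of either spleen pool. The clone 2 alpha chain was read in 0 cells outside clone 2 in any pool. In the 17 young cells, and in 17 of the 60 cells of the old IEL clonotype ranked eighth, the chain stood beside another TRBV13-1 beta chain, and in 31 of these 34 cells the other chain had more UMIs. The source of these contigs was not tested.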

How the results depend on the processing

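The counts of genes 2-fold apart depended on the filter and the pseudocount. For genes higher in clone 2 (42) the count was 71 with cells thinned to 2000 UMIs, 7 with a pseudocount of 1, 24 and 69 with the filter at 0.5 and 0.1, and 122 with the 72 cells holding the beta chain alone in place of clone 2. For genes higher in clone 3 (21) it was 39, 0, 7, 39 and 104 under the same settings, and 12 without cycling cells. Under the other settings (clones by beta chain, mean of per-cell levels, without very deep cells, TMM scaling, cells with or without a Cd4 UMI, equal numbers of cells) the counts were within 1.5 times. The genes higher in clone 3 were less stable than their count. Of the 21, 14 were kept with equal numbers, 14 with per-cell means, 15 without very deep cells and 11 with thinned cells. Of the 42, these settings kept 37, 40, 42 and 39. Against clone 3, clone 2 cells without a Cd4 UMI kept 35 of the 42 genes and 19 of the 21. Within clone 2, the count higher with a Cd4 UMI (1) was 0 without matching, with at least 2 Cd4 UMIs, with a pseudocount of 1 and with the filter at 0.5, and 10 with thinned cells. The count higher without (0) was 5 with thinned cells. The Cd4 share of clone 2 (32.2% at 2000 UMIs) was 19.5% at 1000 UMIs and 65.4% unthinned. The neighbours from the other clone (32.6%) were 17.6% unthinned. The log2 ratio of Cd4 was -0.14 between clone 2 cells without a Cd4 UMI and clone 3, as that choice sets it, and the log2 ratio of Emid1 was 0.0373 with the beta-chain-alone cells; the cause was not tested. No other named gene changed sign. Sizes were less stable than signs. For named genes, 318 of 1265 values moved, in 99 of 115 results. For gene lists, 46 of 259 values moved, in 15 of 20 results. The settings with the beta chain alone, without cycling cells and with equal numbers were chosen after seeing the data. No paired analysis was possible because each group was 1 pool. Clone 3, with 151 cells, sets the counting error of most ratios.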

Other observations

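Clone 2 cells with and without a Gm156 UMI, matched on depth at 147 cells a side, were compared after the patchy detection of Gm156 had been seen. Klre1 had levels of 3.29 with and 4.67 without Gm156, and Klrd1 10.0156 and 13.2. Tyrobp had levels of 9.41 and 9.04, Cd4 1.80 and 2.02, and Fcer1g 35.6 and 38.1. Gm156 was read in 16.9% of all old IEL cells and 6.28% of young IEL cells, and in 0.343% and 0.176% of old and young spleen cells. Gm20400, which set clone 3 apart from clone 2, was read in 14.3% of old and 29.1% of young spleen cells and in 5.94% of old IEL cells. Transcripts of the gamma constant segment Tcrg-C1 had levels of 7.08 in clone 2, 1.49 in clone 3, 8.11 in clone 4, 0.377 in clone 1 and 3.94 in γδ cells.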
